A study of Mus musculus with 15 samples.

Results

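Siglecs are receptors that bind sialic acid at the ends of sugar chains, and the CD300 receptors bind lipids such as phosphatidylserine that cells expose. Both families were followed here through 9 genes, *Siglece*, *Cd33*, *Siglecg* and *Siglec1* of the Siglecs and *Cd300e*, *Cd300a*, *Cd300lb*, *Cd300ld* and *Cd300lf* of the CD300 family, out of 51763 genes in the count table. The genes were chosen by name as inhibitory receptors, but not all of them are. *Siglece* and *Cd300e* were put on the list because their counts had been seen to be highest in dsHMGB1. Their peak in that condition is therefore a description, and no test was made of either gene in a comparison that includes dsHMGB1.

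RNA was sequenced from bone marrow-derived macrophages (BMDMs), which are macrophages grown from marrow cells with M-CSF. The marrow came from wild-type female C57BL/6NTac mice of 8 to 10 weeks, and cells of 5 mice were pooled before seeding, so the errors and p values below reflect differences among cultures and libraries only, not among mice. Cells were stimulated for 24 h, with 3 libraries per condition and 15 in all: PBS as the control, HMGB1 at 5 µg/mL in its fully reduced form (frHMGB1) or its disulfide form (dsHMGB1), LPS at 1000 ng/mL, and LPS together with IFNγ at 20 ng/mL (LPS/IFNγ). In LPS/IFNγ the LPS concentration is given as 1000 ng/mL in the treatment label and as 100 ng/mL in the protocol, so LPS/IFNγ and LPS may differ in LPS dose as well as in IFNγ. HMGB1 is a nuclear protein that acts as an alarm signal outside cells, and its disulfide form, like LPS, is known to act through TLR4. All genes in a stimulation were compared with the same PBS libraries, so the comparisons with PBS are not independent of each other.

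An inhibitory receptor of these families carries an ITIM, a short tyrosine motif in its tail that recruits phosphatases such as SHP-1 when a kinase has phosphorylated it. *Siglece*, *Siglecg*, *Cd300a* and *Cd300lf* encode such receptors. Other members have no ITIM and signal through partner proteins that carry the activating ITAM motif, as is known for *Cd300lb*, *Cd300ld* and *Cd300e*. *Siglec1* encodes CD169, an adhesion receptor of macrophages with a short tail, and the mouse protein of *Cd33* lacks the classical ITIM of its human counterpart.

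The Siglec members other than *Siglec1* lie close together on chromosome 7 of GRCm38, and the CD300 members lie together on chromosome 11. With *Siglecf*, 4 Siglec genes covered 308.8 kb of chromosome 7 from 43351341 to 43660161, and 11 CD300 genes covered 244 kb of chromosome 11 from 114890041 to 115133992. *Siglece* (ENSMUSG00000030474) runs from 43651070 to 43660161 on the minus strand, *Cd33* (ENSMUSG00000004609) from 43524216 to 43544428 on the minus strand and *Siglecg* (ENSMUSG00000030468) from 43408204 to 43418358 on the plus strand. *Siglec1* (ENSMUSG00000027322) is on chromosome 2 from 131069220 to 131086765, minus strand. On chromosome 11, *Cd300a* (ENSMUSG00000034652) runs from 114890041 to 114904654 on the plus strand. The others are on the minus strand, *Cd300lb* (ENSMUSG00000063193) from 114922781 to 114934386, *Cd300ld* (ENSMUSG00000034641) from 114982274 to 114989922, *Cd300e* (ENSMUSG00000048498) from 115051917 to 115062177 and *Cd300lf* (ENSMUSG00000047798) from 115116214 to 115133992. In the chromosome 11 cluster neighbours moved in opposite directions in LPS, where *Cd300e* rose and *Cd300ld* and *Cd300lf* fell, as the values below show. In the chromosome 7 cluster *Siglece* and *Cd33* both rose in LPS, and *Siglecg* and *Siglecf* were not called there with all libraries. The sequences just before 4 of the genes are printed, those of *Siglece* and *Cd300e* and those of the CD300 genes with the strongest falls. They are from RefSeq (GRCm38.p6), read 5′ to 3′ on the strand of the gene and end at the base before the gene start of GENCODE, given above. For *Cd300e* and *Cd300lb* the RefSeq start lies 138 and 15 bases further into the gene, and the bases between the starts were searched but are not printed. Capitals mark every match to a motif of 7 that were searched on both strands.

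Siglece, chr7:43660162-43660411, minus strand: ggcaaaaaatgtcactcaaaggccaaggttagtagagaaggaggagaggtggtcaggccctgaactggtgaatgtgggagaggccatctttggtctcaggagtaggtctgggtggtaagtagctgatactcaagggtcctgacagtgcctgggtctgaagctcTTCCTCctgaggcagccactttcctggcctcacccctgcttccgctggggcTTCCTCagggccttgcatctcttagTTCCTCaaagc
Cd300e, chr11:115062178-115062289, minus strand: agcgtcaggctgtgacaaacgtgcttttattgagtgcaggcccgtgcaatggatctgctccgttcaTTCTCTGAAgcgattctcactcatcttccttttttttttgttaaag
Cd300lb, chr11:114934387-114934621, minus strand: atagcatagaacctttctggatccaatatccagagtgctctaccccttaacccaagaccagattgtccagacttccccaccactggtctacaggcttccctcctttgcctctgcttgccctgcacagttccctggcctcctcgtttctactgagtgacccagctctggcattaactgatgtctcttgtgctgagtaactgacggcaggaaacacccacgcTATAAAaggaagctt
Cd300a, chr11:114889791-114890040, plus strand: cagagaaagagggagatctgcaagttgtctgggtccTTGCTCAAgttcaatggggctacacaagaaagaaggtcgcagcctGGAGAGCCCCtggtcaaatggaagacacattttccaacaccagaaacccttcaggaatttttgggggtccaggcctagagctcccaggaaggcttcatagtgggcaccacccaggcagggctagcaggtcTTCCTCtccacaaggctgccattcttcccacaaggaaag

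The motifs searched in the 250 bases before each RefSeq start were GAGGAA (PU.1), TTCNNNGAA (GAS), TTGCNNAA (C/EBP), TGANTCA (AP-1), the ISRE and NF-κB motifs by name and the TATA box, spelled TATAAA. *Siglece* held GAGGAA 3 times, each on the opposite strand and thus printed as TTCCTC, and 23.3% of 32851 promoters held it at least once. The sequence of *Cd300e* held a GAS match, which 7.02% of promoters held. *Cd300lb* held TATAAA, found in 12.4% of promoters, with its first base 15 bases before the GENCODE start and 30 before the RefSeq start. In *Cd300a* there was 1 match each to C/EBP, NF-κB and PU.1, held by 9.56%, 7.25% and 23.3% of promoters. No capital letters overlap between motifs in these 4 sequences. The same motifs also matched in members whose sequences are not printed. GAGGAA was found for *Cd33*, *Siglecg*, *Cd300ld* and *Cd300lf*, TATAAA for *Cd300lf* and an NF-κB match for *Cd300ld*. The RefSeq start of *Cd33* lies 11257 bases inside the GENCODE gene, so its match does not lie before the start given above. *Siglecg* held GAGGAA before a RefSeq start 35 bases into the gene, but not before another 76 bases in. A match is a stretch of letters and not a site shown to be used, and 8 of the 9 members, all but *Siglec1*, had an entry in the promoter table.

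All 9 members passed edgeR's filter on low counts, with total counts over the 15 libraries from 154 for *Siglecg* to 186190 for *Cd300a*, and 16919 genes were tested in all. Total counts per library ranged from 40934540 to 80925478. Normalized counts are counts divided by DESeq2's size factors, and a gene was called when edgeR's quasi-likelihood test gave it an adjusted p under 0.05 (Benjamini-Hochberg, over all 16919 genes). The 8 macrophage markers examined, such as *Csf1r* and *Adgre1*, summed to 13520 to 27281 CPM (counts scaled to the library total) in every library. Of the T and NK cell list 4 of 5 markers were at 0 in all libraries, *Cd3e* among them, and its sum was at most 0.03 CPM. The eosinophil list summed to 3.38 to 7.10 CPM, from *Ccr3* (153 to 513 counts), with *Epx* and *Ear1* at 0. Fibroblast markers summed to 111 to 266 CPM, and dendritic cell markers to 3.35 to 5.17 CPM in PBS, frHMGB1 and dsHMGB1 and 7.81 to 14.95 CPM with LPS or LPS/IFNγ. The 6 B cell markers summed to 38.1 to 51.9 CPM in PBS and frHMGB1 and 5.84 to 13.0 CPM in the other conditions, mostly from *Ighm*. The neutrophil list summed to 14.97 to 27.7 CPM in PBS and frHMGB1 and 9.04 to 15.9 CPM in the others, mostly from *Mmp8* (435 to 1806 counts), with *Ly6g* and *Mpo* at 0. The part of these cell types in the changes of the receptor genes was not tested. Fewer cells that carry a transcript and less of it per cell cannot be told apart in these bulk libraries.

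PBS replicate 3 stood apart from the other PBS libraries. Its correlation with them across genes was 0.934 and 0.939, against 0.987 to 0.993 for all other pairs of replicates. Its counts leaned to short genes, with a median ratio to PBS replicates 1 and 2 of 2.80 over 648 genes with under 1500 bases of exon and 0.595 over 3615 genes with more than 6000. Mitochondrial transcripts took 0.346% of its counts and 0.84% and 0.89% in PBS replicates 1 and 2. Among the members the ratio was 7.75 for *Siglece*, 2.75 for *Siglecg*, 1.23 for *Cd300a*, 1.12 for *Cd300lf*, 0.698 for *Cd300ld*, 0.401 for *Cd300lb*, 0.386 for *Cd300e*, 0.297 for *Cd33* and 0.107 for *Siglec1*. The PBS levels of *Siglece* and *Siglec1* therefore differed most between libraries. For the members and other named genes, results against PBS in dsHMGB1, LPS or LPS/IFNγ that changed their call without PBS replicate 3 are given both ways. Counts over the gene lists are given with all libraries unless stated, and some of them changed without that library.

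**Figure D1:**
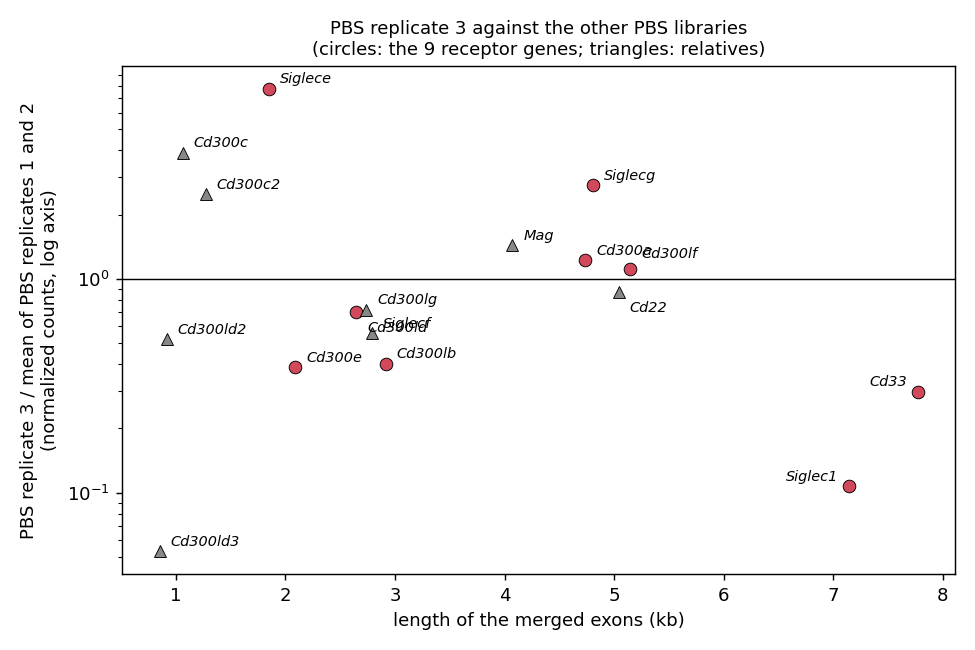
Normalized counts in PBS replicate 3 divided by the mean of PBS replicates 1 and 2 (vertical log axis) against the length of the merged exons in kb, for the 9 receptor genes (circles) and the relatives that passed the filter with counts in PBS replicate 3 (triangles). *Siglece* sits highest at 7.75, and *Siglec1*, a long gene, at 0.107.

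Per kb of exon, the macrophages of the PBS group held far more RNA of some members than of others. *Cd300lb*, *Cd300ld* and *Cd300a* had 6417, 4868 and 4701 normalized counts per kb. *Siglec1* followed with 294, *Cd33* with 31.8 and *Cd300lf* with 27.5, while *Cd300e*, *Siglece* and *Siglecg* had 9.24, 9.03 and 1.68. *Cd300e* had 11.6 and *Siglece* 2.78 per kb without PBS replicate 3, so their near tie rests on that library. In dsHMGB1 *Cd300ld* was highest with 3470 per kb, followed by *Cd300a* with 1437 and *Cd300lb* with 1093, and *Siglece* and *Cd300e* reached 143 and 133 per kb. In LPS and LPS/IFNγ *Cd300ld* was again highest, with 2727 and 2693 per kb, while *Cd300lb* had 106 and 84.0.

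**Figure D2:**
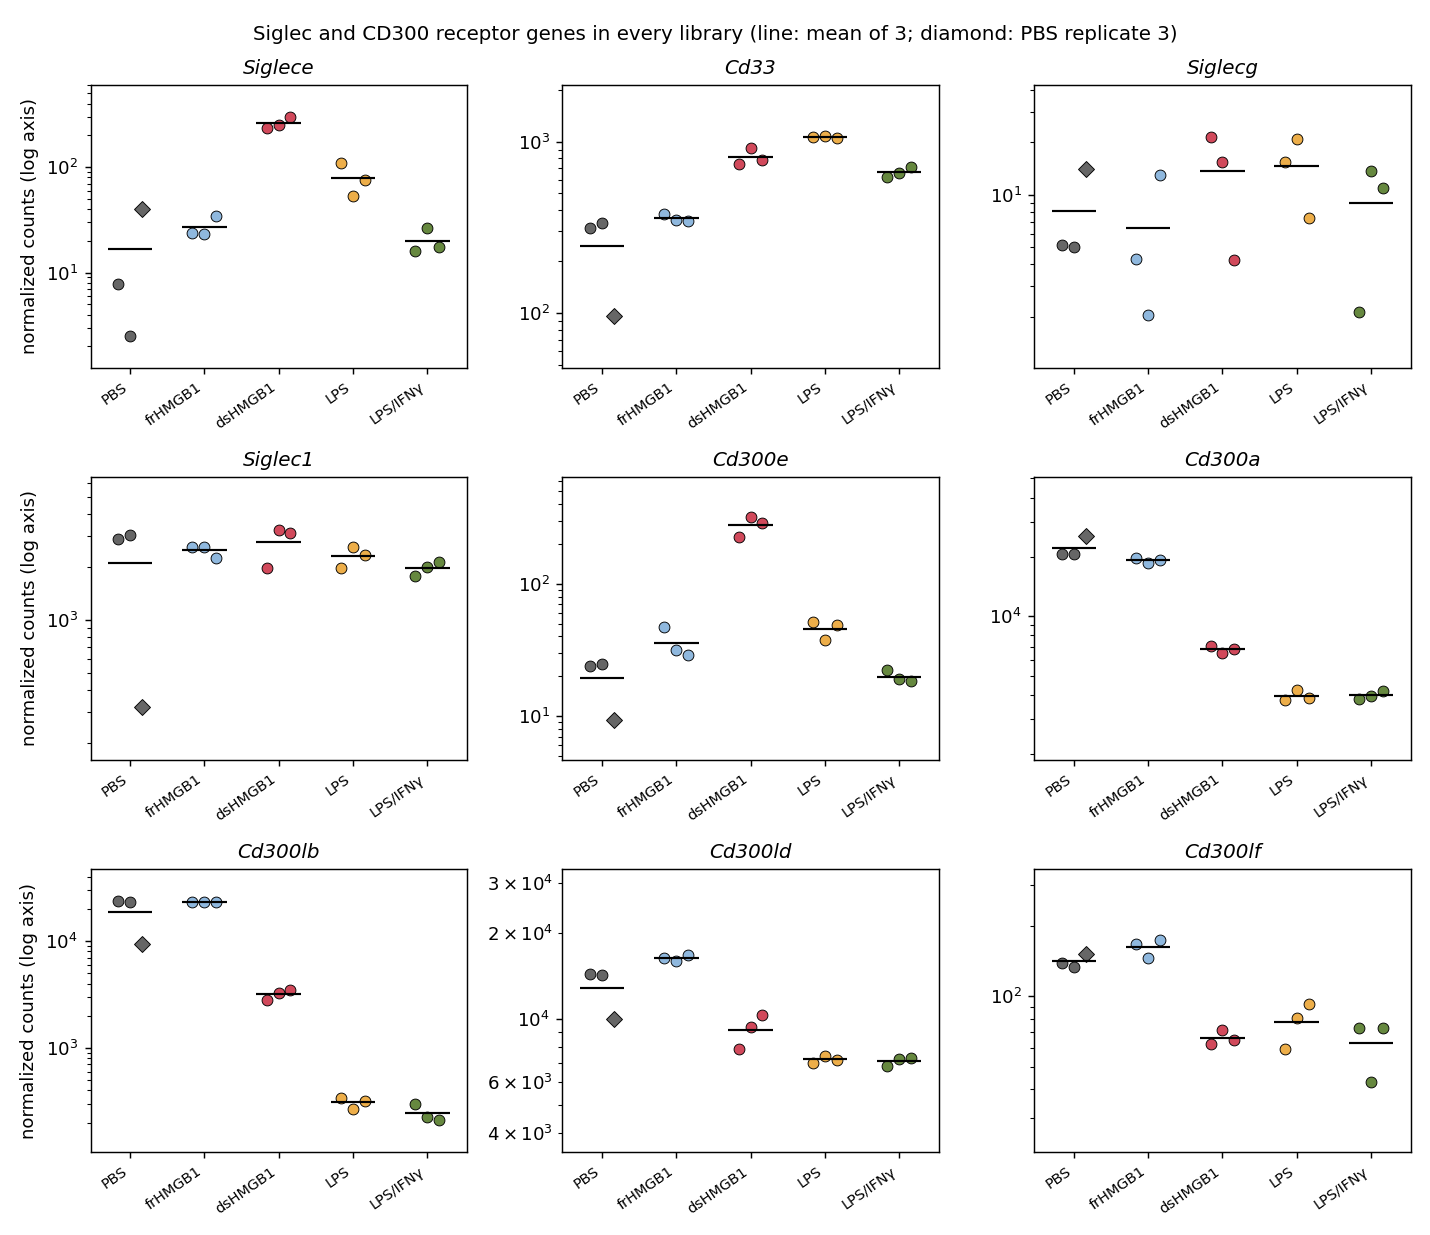
Normalized counts (log axis) of the 9 receptor genes in each of the 15 libraries by condition, with the mean of 3 libraries as a line and PBS replicate 3 as a diamond. *Siglece* and *Cd300e* are highest in dsHMGB1, and *Cd300lb* has its dsHMGB1 libraries at 2805 to 3496, between PBS and the LPS conditions.

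*Cd300lb* had the strongest fall among the members. It encodes an activating receptor of myeloid cells. The PBS libraries had 23538, 23247 and 9372 normalized counts and the frHMGB1 libraries 23373, 23278 and 23462. The dsHMGB1 libraries had 2805, 3261 and 3496, the LPS libraries 343, 266 and 318, and the LPS/IFNγ libraries 297, 225 and 213. Libraries of dsHMGB1 lay below all PBS libraries and above all libraries with LPS, with no overlap. Against PBS the log2 fold change was -2.55 in dsHMGB1 (standard error 0.28, edgeR adjusted p = 7.58e-06), -5.92 with LPS (standard error 0.29, adjusted p = 4.58e-09) and -6.26 with LPS/IFNγ (standard error 0.29, adjusted p = 2.97e-09). This is 5.87-fold lower in dsHMGB1, 60.6-fold lower in LPS and 76.4-fold lower in LPS/IFNγ. The direct comparison gave *Cd300lb* 10.3-fold higher in dsHMGB1 than in LPS (adjusted p = 4.27e-06) and 13.0-fold higher than in LPS/IFNγ (adjusted p = 8.75e-07). Without PBS replicate 3 the log2 fold changes over PBS were -2.88, -6.25 and -6.59.

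*Cd300a*, which encodes an inhibitory receptor for phosphatidylserine and phosphatidylethanolamine, had 20729, 20705 and 25390 normalized counts in PBS and 19771, 18539 and 19207 in frHMGB1. It had 7085, 6527 and 6812 in dsHMGB1, 3740, 4217 and 3860 in LPS and 3788, 3934 and 4173 in LPS/IFNγ. As for *Cd300lb*, the dsHMGB1 libraries formed a separate level between PBS and the LPS conditions, and the LPS and LPS/IFNγ libraries overlapped. *Cd300a* was 3.27-fold lower than in PBS in dsHMGB1 (log2 fold change -1.71, standard error 0.09, edgeR adjusted p = 2.28e-09), 5.65-fold lower with LPS (adjusted p = 3.46e-11) and 5.62-fold lower with LPS/IFNγ (adjusted p = 3.64e-11). It was 1.73-fold higher in dsHMGB1 than in LPS (adjusted p = 1.16e-05) and 1.72-fold higher than in LPS/IFNγ (adjusted p = 8.54e-06). Up to 3.45% of its 50-base stretches also occur in other genes, mainly *Cd300c2*.

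*Cd300ld* and *Cd300lf* fell less. *Cd300ld*, an activating receptor gene, had 14419, 14212 and 9993 normalized counts in PBS, 16389, 15995 and 16709 in frHMGB1, 7847, 9389 and 10303 in dsHMGB1, 7031, 7419 and 7186 in LPS, and 6850, 7241 and 7280 in LPS/IFNγ. One dsHMGB1 library lay above PBS replicate 3, so those groups overlapped. Set against PBS, *Cd300ld* changed by -0.49 on the log2 scale in dsHMGB1 (standard error 0.14, edgeR adjusted p = 0.012), by -0.84 with LPS (adjusted p = 0.000127) and by -0.85 with LPS/IFNγ (adjusted p = 0.000147). The fall in dsHMGB1 lost its call without PBS replicate 1 (adjusted p = 0.052), without dsHMGB1 replicate 1 (adjusted p = 0.0639) and in a fit of dsHMGB1 and PBS alone (adjusted p = 0.131). *Cd300ld* was higher in dsHMGB1 than in LPS by 0.35 and than in LPS/IFNγ by 0.37 on the log2 scale, with adjusted p of 0.0602 and 0.0615, and without PBS replicate 3, whose spread enters the common fit, these were 0.000338 and 0.000118.

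*Cd300lf*, which encodes an inhibitory receptor, was a less abundant transcript. It had 139, 134 and 152 normalized counts in PBS, 168, 145 and 175 in frHMGB1, 62.3, 71.9 and 64.7 in dsHMGB1, 59.5, 80.7 and 92.6 in LPS and 73.2, 43.1 and 73.1 in LPS/IFNγ. The libraries of the last 3 conditions lay below all PBS libraries and overlapped with each other. Set against PBS, it changed by -1.09 on the log2 scale in dsHMGB1 (edgeR adjusted p = 0.00084), by -0.87 with LPS (adjusted p = 0.00213) and by -1.16 with LPS/IFNγ (adjusted p = 0.000321). In dsHMGB1 it differed by -0.22 from LPS (standard error 0.23, adjusted p = 0.639) and by 0.07 from LPS/IFNγ (standard error 0.22, adjusted p = 0.82). It overlaps *Rab37* on the opposite strand, which had 138 counts in all libraries together, and *Cd300lb* overlaps the pseudogene *Gm11699*, which had 265. Whether the counting used strand is not stated.

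*Cd33* was called higher in each of the 3 inflammatory stimulations. It had 312, 334 and 96.1 normalized counts in PBS, 379, 347 and 344 in frHMGB1, 739, 920.0 and 788 in dsHMGB1, 1066, 1075 and 1050 in LPS and 627, 656 and 716 in LPS/IFNγ. None of the stimulated libraries overlapped with PBS. It was 3.28-fold higher in dsHMGB1 (log2 fold change 1.71, standard error 0.32, edgeR adjusted p = 0.000826), 4.28-fold higher with LPS (adjusted p = 0.000137) and 2.68-fold higher with LPS/IFNγ (adjusted p = 0.00241). The LPS libraries lay above those of dsHMGB1, but the difference of -0.38 on the log2 scale from LPS to dsHMGB1 had an adjusted p of 0.509. Without PBS replicate 3, which was lowest for *Cd33*, that adjusted p was 0.00255, and the log2 fold changes over PBS were 1.33, 1.71 and 1.04 in dsHMGB1, LPS and LPS/IFNγ.

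*Siglece*, the gene of an inhibitory Siglec of mouse neutrophils and macrophages, had 7.76, 2.52 and 39.8 normalized counts in PBS and 23.5, 23.5 and 34.5 in frHMGB1. In dsHMGB1 it had 237, 253 and 301, in LPS 109, 53.8 and 75.0, and in LPS/IFNγ 15.9, 26.3 and 17.4. Every dsHMGB1 library lay above every other library, and the LPS libraries came next, above all libraries of the remaining conditions. The mean in dsHMGB1 was 264 ± 33.4 (SD, n = 3), which is 16.6-fold the PBS mean, 3.33-fold the LPS mean and 13.3-fold the LPS/IFNγ mean as fitted. Without PBS replicate 3, the log2 fold change of dsHMGB1 over PBS was 5.68 in place of 4.06. In LPS *Siglece* rose by 2.32 on the log2 scale over PBS (standard error 0.62, edgeR adjusted p = 0.00445). The rise was 3.95 (adjusted p = 1.91e-07) without PBS replicate 3, and the call was lost in a fit of LPS and PBS alone (adjusted p = 0.0755). It was 3.99-fold lower in LPS/IFNγ than in LPS (log2 fold change -2.0, standard error 0.62, adjusted p = 0.0286), a call that was lost when LPS replicate 1 or 3 or LPS/IFNγ replicate 1 or 3 was left out (adjusted p from 0.0528 to 0.0996). Between LPS/IFNγ and PBS its change was 0.32 (standard error 0.64, adjusted p = 0.60) and, without PBS replicate 3, 1.94 (adjusted p = 0.00229). In frHMGB1 the change over PBS was 0.78 (standard error 0.63, adjusted p = 0.529) and, without that library, 2.41 (adjusted p = 0.00146).

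*Cd300e* had a similar order of conditions. It encodes an activating receptor of monocytes and macrophages. PBS libraries had 23.9, 24.6 and 9.37 normalized counts, frHMGB1 libraries 47.0, 31.7 and 29.1, dsHMGB1 libraries 226, 319 and 289, LPS libraries 51.7, 37.4 and 48.5, and LPS/IFNγ libraries 22.3, 18.9 and 18.3. The dsHMGB1 libraries were again above all others, while LPS and frHMGB1 overlapped, and so did LPS/IFNγ and PBS. The dsHMGB1 mean of 278 ± 47.6 (SD, n = 3) was 13.7-fold the PBS mean, 6.05-fold the LPS mean and 14.1-fold the LPS/IFNγ mean as fitted. In LPS *Cd300e* rose by 1.18 over PBS (log2 fold change, standard error 0.33, edgeR adjusted p = 0.00879), and the adjusted p was 0.0506 in a fit of these groups alone. It was 2.32-fold lower in LPS/IFNγ than in LPS (adjusted p = 0.0196), and this call was lost without LPS replicate 1, LPS/IFNγ replicate 2 or LPS/IFNγ replicate 3 (adjusted p from 0.0536 to 0.0608). The change between LPS/IFNγ and PBS was -0.03 (standard error 0.35, adjusted p = 0.904).

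*Siglec1* and *Siglecg* were not called in any of the 8 comparisons. *Siglec1*, known as an interferon-induced gene, had 2913, 3071 and 321 normalized counts in PBS, 2619, 2593 and 2269 in frHMGB1, 1978, 3262 and 3146 in dsHMGB1, 1980, 2596 and 2336 in LPS and 1792, 2006 and 2129 in LPS/IFNγ. Every condition overlapped with PBS, whose libraries spread most. Without PBS replicate 3, *Siglec1* was called lower than in PBS in LPS (log2 fold change -0.39, adjusted p = 0.0175) and in LPS/IFNγ (log2 fold change -0.61, adjusted p = 0.000844), and higher in dsHMGB1 than in LPS/IFNγ (0.51, adjusted p = 0.00327). *Siglecg*, the gene of an inhibitory receptor of B cells that also binds CD24 in complexes with HMGB1, had 2 to 24 counts per library. Its normalized counts were 5.17, 5.05 and 14.1 in PBS, 4.28, 2.04 and 12.9 in frHMGB1, 21.4, 15.4 and 4.20 in dsHMGB1, 15.5, 20.9 and 7.35 in LPS and 2.12, 13.7 and 10.97 in LPS/IFNγ. At this depth no difference was detectable, and the change in dsHMGB1 over PBS was 0.80 on the log2 scale with a standard error of 0.80.

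**Figure D3:**
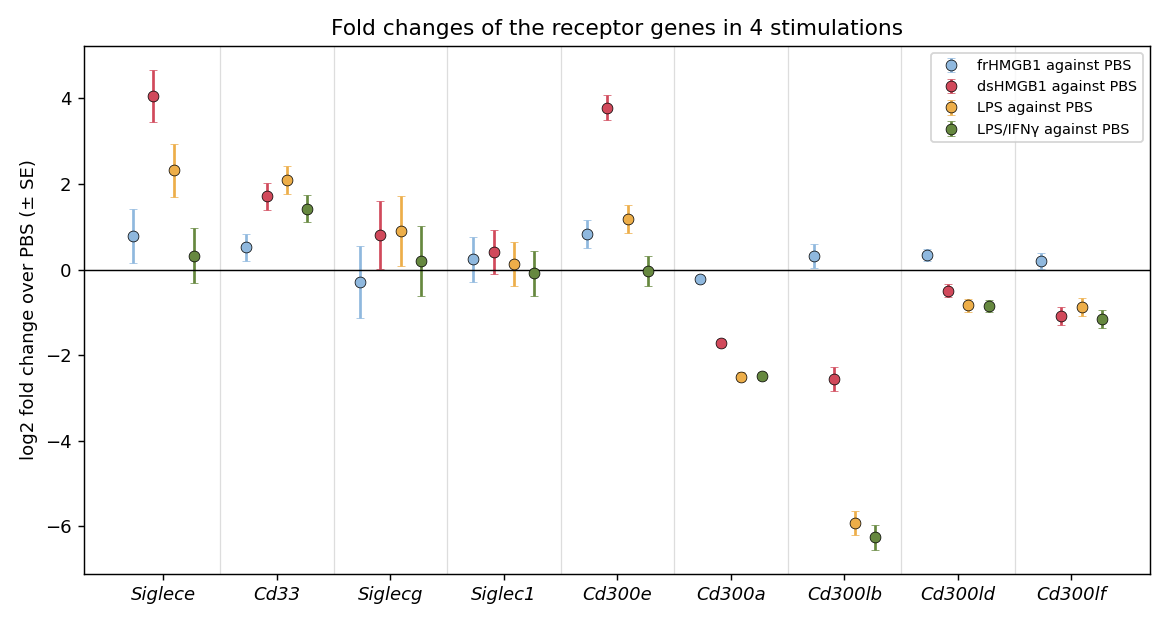
DESeq2 log2 fold changes over PBS with their standard errors for the 9 receptor genes in frHMGB1, dsHMGB1, LPS and LPS/IFNγ. *Cd300a*, *Cd300lb*, *Cd300ld* and *Cd300lf* lie below 0 in the last 3 conditions, and *Siglece* and *Cd300e* are highest in dsHMGB1, at 4.06 and 3.78, in the condition whose high counts put them on the list.

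Counted over the members, dsHMGB1 against PBS had 1 of the 7 tested called higher (*Cd33*) and 4 called lower (*Cd300a*, *Cd300lb*, *Cd300ld* and *Cd300lf*), where 23.3% of all tested genes were called higher and 24.2% lower. LPS against PBS had 3 of 9 higher (*Siglece*, *Cd33* and *Cd300e*) and the same 4 CD300 genes lower, beside 26.7% and 36.2% of all genes. LPS/IFNγ against PBS had *Cd33* higher and again these 4 genes lower, beside 29% and 31.2%. The median log2 fold change over all genes was -0.10, -0.21 and -0.12 in these comparisons. Against frHMGB1, dsHMGB1 had *Cd33* higher and the 4 CD300 genes lower, beside 27.7% and 23.1%. The genes were chosen by name and 2 of them by level, and no test of their share was made.

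In frHMGB1 against PBS, edgeR called 0 of 9 members in either direction, beside 1.31% of all genes called higher and 5.69% lower, and DESeq2's Wald test also called 0. The unadjusted p was under 0.05 for 3 members, higher for *Cd300e* and *Cd300ld* and lower for *Cd300a*, with log2 fold changes of 0.83, 0.35 and -0.22. Against LPS, dsHMGB1 had 2 of the 7 tested members higher, *Cd300a* and *Cd300lb*, beside 15.8% of all genes. DESeq2's Wald test called 3 higher here and against LPS/IFNγ, with *Cd300ld* as the third (adjusted p = 0.0486 and 0.0304). By edgeR and by DESeq2 0 were lower, also at an unadjusted p under 0.05, beside 10.6% of all genes. The shares of all genes in this paragraph are those called by edgeR at an adjusted p under 0.05. Shares by DESeq2 or at an unadjusted p are not given. Against LPS/IFNγ the same pair was higher, beside 16.5%, and 0 were lower by either tool or at an unadjusted p under 0.05, beside 16.7%. LPS/IFNγ against LPS had 0 of 9 members higher by either tool or at an unadjusted p under 0.05, beside 16.3%, and 2 lower, *Siglece* and *Cd300e*, beside 9.36%. With PBS replicate 3 left out, *Cd33* (-0.68) and *Cd300lb* (-0.34) were called lower as well, beside 24.3% of all genes called lower in that fit.

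Among the other Siglec and CD300 genes, 11 of 12 passed the filter, and *Siglech* did not. *Cd300c2*, an activating receptor gene, was as abundant as the leading members, with 22568 ± 12992 normalized counts (SD, n = 3) in PBS, where PBS replicate 3 had 37569 against 15250 and 14885. It was lower in dsHMGB1 (log2 fold change -0.97, edgeR adjusted p = 0.0063), LPS (-0.90, adjusted p = 0.005) and LPS/IFNγ (-1.17, adjusted p = 0.0011), and unlike *Cd300a* and *Cd300lb* its means in dsHMGB1 and LPS were close, 11540 and 12100. These falls were smaller (-0.39, -0.32 and -0.59) and still called without PBS replicate 3, and frHMGB1, at -0.36 with all libraries (adjusted p = 0.58), turned to 0.23 (adjusted p = 0.04). *Mag*, the gene of a Siglec best known from myelin, had 195, 176 and 267 normalized counts in PBS, 278, 252 and 277 in dsHMGB1, 557, 607 and 572 in LPS and 1021, 977 and 979 in LPS/IFNγ. Its LPS and LPS/IFNγ libraries formed separate steps above dsHMGB1, the reverse of the order for *Siglece*. It rose by 0.36, 1.46 and 2.24 on the log2 scale over PBS, and it was lower in dsHMGB1 than in LPS by -1.10 (adjusted p = 4.48e-05). *Cd22*, which encodes an inhibitory Siglec of B cells, fell in dsHMGB1 (-0.67) and LPS (-0.47), with 1544 ± 138 in PBS, 973 ± 85.9 in dsHMGB1 and 1674 ± 90.4 in LPS/IFNγ (SD, n = 3). *Cd22* was counted beside a B cell marker list that was also lower in those conditions, and its part was not tested. *Siglecf* was not called against PBS with all libraries, and without PBS replicate 3 it was called lower in dsHMGB1 (-0.53) and LPS (-0.57). *Siglec15* had 14, 19 and 0 counts in PBS and 0 in each LPS library, and was called lower there (adjusted p = 0.026) although the groups overlap at 0. The gene was also called lower in dsHMGB1 (adjusted p = 0.04) and LPS/IFNγ (adjusted p = 0.017) when PBS replicate 3 was left out. *Cd300ld5* was called higher in dsHMGB1 with 13.3, 25.7 and 38.7 normalized counts, but all of its 50-base stretches occur in other genes, mainly *Cd300ld4*, so reads cannot be assigned to it with certainty. *Cd300c*, *Cd300ld2*, *Cd300ld3*, *Cd300ld4* and *Cd300lg* were not called against PBS, and without PBS replicate 3 *Cd300ld2* was called lower in LPS/IFNγ (-1.46, adjusted p = 0.017). The limit on assigning reads holds here too, since 93.8% of the 50-base stretches of *Cd300ld4*, 82.1% of *Cd300ld3* and 31% of *Cd300ld2* occur in other genes.

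Receptors of this kind depend on partners inside the cell. Of 11 genes for phosphatases, kinases and adaptors that act at ITIMs, 7 were called higher and 2 lower in dsHMGB1, 7 and 3 in LPS, and 6 and 4 in LPS/IFNγ, with medians of 1.32, 1.07 and 0.87 on the log2 scale. Of all genes, 23.3% were called higher and 24.2% lower in dsHMGB1, 26.7% and 36.2% in LPS, and 29% and 31.2% in LPS/IFNγ, and the counts of this and the following lists stand beside those shares with no test of the list. In frHMGB1 4 were called higher and 0 lower, beside 1.31% and 5.69% of all genes. Without PBS replicate 3, 6 were higher in frHMGB1, beside 8.41%. In that fit 3, 4 and 5 were lower in dsHMGB1, LPS and LPS/IFNγ, beside 29%, 38.3% and 34.4%. *Ptpn6*, the gene of SHP-1, had means of 13243 ± 2212 in PBS, 34548 ± 1562 in dsHMGB1, 24401 ± 703 with LPS and 24212 ± 219.9 with LPS/IFNγ (SD, n = 3). It rose by 1.38 in dsHMGB1 (edgeR adjusted p = 2.7e-08) and was higher there than in LPS by 0.50 (adjusted p = 0.00044) and than in LPS/IFNγ by 0.51 (adjusted p = 0.00041). The kinase gene *Src* rose in all 3 conditions, by 2.82 in dsHMGB1 and 3.61 in LPS. *Socs3*, an induced inhibitor of cytokine signalling, went from 78.9 ± 12.9 in PBS to 25858 ± 2372 in dsHMGB1 and 104826 ± 4820.2 in LPS (SD, n = 3).

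Of 9 adaptor and kinase genes on the ITAM side, 3 were called higher and 2 lower in dsHMGB1, 4 and 4 in LPS, and 4 and 5 in LPS/IFNγ, counts that in dsHMGB1 lie near the shares of all genes. *Tyrobp*, the gene of the adaptor DAP12, fell in all 3 conditions, with log2 fold changes of -0.58 (edgeR adjusted p = 0.013), -0.52 and -0.93. These were -0.22, -0.17 and -0.57, still called, without PBS replicate 3. *Fcer1g*, the gene of the adaptor FcRγ, rose by 0.53 (adjusted p = 0.012), 1.12 and 0.66. The kinase gene *Syk* and the adaptor gene *Lcp2* rose as well, by 2.08 and 4.55 in dsHMGB1.

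Among 15 other inhibitory receptor genes tested, 6 were higher and 1 lower in dsHMGB1, 5 and 6 in LPS, and 4 and 6 in LPS/IFNγ, and the counts in LPS lie near the shares of all genes. Leaving out PBS replicate 3 gave 9 higher and 4 lower in dsHMGB1 and 7 higher in LPS/IFNγ. In that fit 29.8% of all genes were called higher and 29% lower in dsHMGB1, and 33.3% higher in LPS/IFNγ. *Sirpa*, the receptor for the signal CD47, had means of 138964 ± 14594 in PBS, 120193 ± 4292 in dsHMGB1, 60900.2 ± 3126 with LPS and 52441 ± 1114 with LPS/IFNγ (SD, n = 3). Its change in dsHMGB1 was -0.21 (edgeR adjusted p = 0.081) and, without PBS replicate 3, -0.30 (adjusted p = 2.96e-05), and it was higher in dsHMGB1 than in LPS by 0.98 (adjusted p = 7.7e-06). *Vsir*, the gene of VISTA, fell in dsHMGB1 and LPS (log2 fold changes -1.38 and -1.89), and was higher in dsHMGB1 than in LPS by 0.50 (adjusted p = 0.00058). *Clec12a* and *Pirb* were not called against PBS in any of the 3 conditions, but without PBS replicate 3 both were called higher in each, with log2 fold changes of 0.67 and 0.59 in dsHMGB1.

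The ligands of Siglecs need sialic acid, and the genes that make it were lower in stimulated macrophages. Of 5 genes tested, 4 were called lower in dsHMGB1 and all 5 in LPS and in LPS/IFNγ, with 0 called higher and medians of -1.02, -1.82 and -1.79 on the log2 scale. *Gne*, the gene of the first enzyme of the pathway, had means of 754 ± 71.7 in PBS, 302 ± 28.4 in dsHMGB1, 143 ± 43 with LPS and 125 ± 15 with LPS/IFNγ (SD, n = 3). It fell in all 3 conditions, with log2 fold changes of -1.32, -2.41 and -2.59, and it was higher in dsHMGB1 than in LPS by 1.09 (edgeR adjusted p = 0.0007). *Cmas*, which encodes the activating enzyme, also fell in each (-1.37, -1.82 and -1.71), as did *Nans* (-0.97, -1.27 and -1.79) and the transporter gene *Slc35a1* (-0.73, -1.25 and -1.30). Compared directly, 3 of the 5 were higher in dsHMGB1 than in LPS, beside 15.8% of all genes, and 3 than in LPS/IFNγ, beside 16.5%. In these comparisons 0 were lower, beside 10.6% and 16.7% of all genes.

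The sialyltransferase genes, which attach sialic acid to sugar chains, were called in both directions, with no test of the list. Of 12 tested, 5 were higher and 4 lower in dsHMGB1, 5 and 5 in LPS, and 6 and 4 in LPS/IFNγ. *St3gal1* rose by 2.76, 2.98 and 2.34 on the log2 scale, and *St3gal5* by 2.38, 2.66 and 3.88. *St6galnac4* had means of 5250.2 ± 85.8 in PBS and 5835 ± 439.7 in dsHMGB1 (SD, n = 3), a change of 0.15 (edgeR adjusted p = 0.18), against 26179 ± 629 in LPS/IFNγ, where it rose by 2.32. *St8sia4* fell by 1.26 in dsHMGB1 (adjusted p = 0.0026), was not called in the other stimulations (in LPS it was -0.67 and called without PBS replicate 3, adjusted p = 0.000194), and was lower in dsHMGB1 than in LPS by -0.92 (adjusted p = 0.043).

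**Figure D4:**
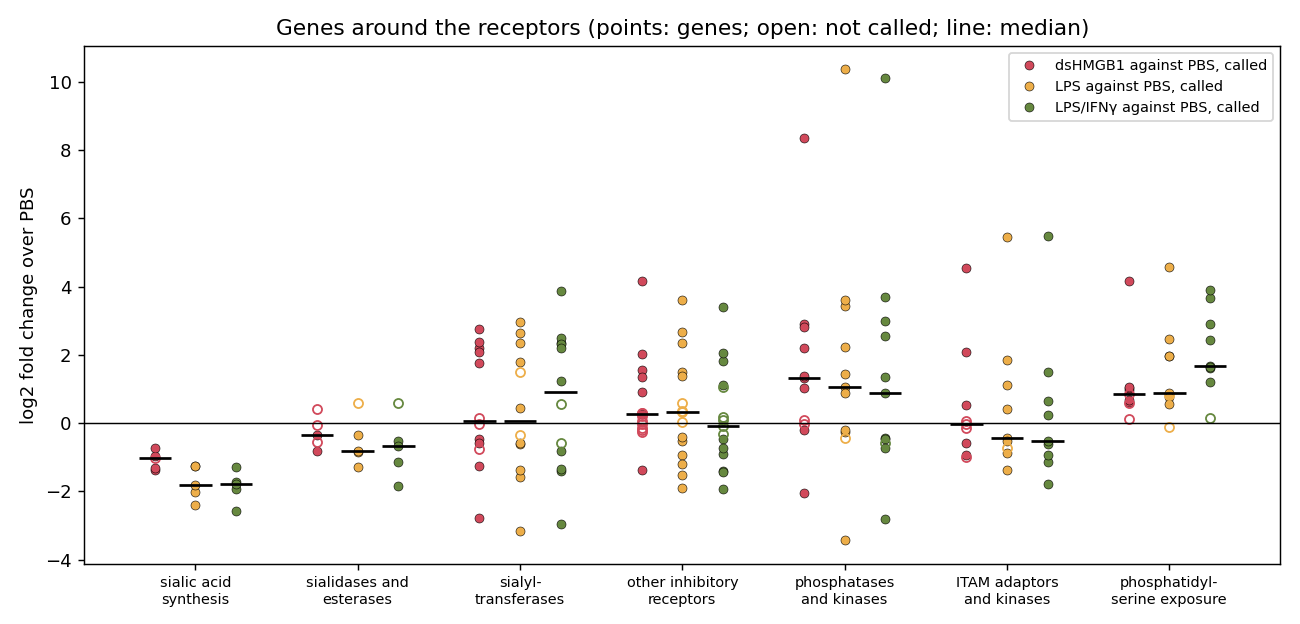
DESeq2 log2 fold changes over PBS in dsHMGB1, LPS and LPS/IFNγ for the tested genes of 7 lists around the receptors, with filled points for called genes, open points for the others and a line for the median. The genes of sialic acid synthesis lie below 0 in all 3 conditions, and those of phosphatidylserine exposure mostly above 0.

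The genes most like *Siglece* and *Cd300e* in pattern were sought over the 15 libraries, by Pearson's r of log2(normalized count + 1) among 10828 protein-coding genes with a mean of at least 50. The libraries of a condition share their treatment, so r mostly describes the order of the conditions. For *Siglece* the 5 genes were *Arl5c* (r = 0.944), *Cyp51* (0.939), *Tmem176a* (0.927), *Gsr* (0.914) and *Ncln* (0.914). *Arl5c* had means of 1145 ± 414 in PBS, 5942 ± 374 in dsHMGB1, 3869 ± 163 with LPS and 1828 ± 110.5 with LPS/IFNγ (SD, n = 3), and *Cyp51*, an enzyme gene of cholesterol synthesis, had 2638 ± 439.7, 5376 ± 217, 3438 ± 52.3 and 2812 ± 72.3. For *Cd300e* they were *Fam20c* (0.969), *Ptgir* (0.968), *Fam219a* (0.959), *Acp2* (0.955) and *Hdac4* (0.951). *Fam20c* had means of 32785 ± 2809.7 in PBS, 76671 ± 2315 in dsHMGB1, 47166 ± 1735 with LPS and 30038 ± 440.2 with LPS/IFNγ (SD, n = 3). Between *Siglece* and *Cd300e* themselves r was 0.788, and *Cd300e* ranked 127 among the genes most like *Siglece* and *Siglece* 130 among those most like *Cd300e*.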

How the data were processed

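RNA of 15 libraries of BMDMs, 3 per condition, had been prepared by the authors with a stranded mRNA kit, sequenced paired-end on an Illumina NextSeq, aligned to GRCm38 with STAR and compared with DESeq2. The deposited values are raw read counts for 51763 genes, without normalization, and 0 columns lacked a sample. The program that counted reads, and its gene models, were not given in the sources used here. GENCODE M21 supplied names for 51661 of these genes.

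Genes were kept by filterByExpr (roughly 10 counts in 3 libraries, with 15 overall) and tested with edgeR 4.0.16 in R 4.3.3, by the quasi-likelihood F test with TMM normalization, all 15 libraries and no covariates. Normalized counts, unshrunken log2 fold changes and standard errors came from DESeq2 1.42.0. On simulated counts for 16206 genes of dsHMGB1 against PBS, 88% of 2-fold and 100% of 4-fold changes were recovered. The simulation gave all genes the same spread, had no library like PBS replicate 3 and changed only genes above a minimum CPM. Recovery for members with a wider spread or few counts, such as *Siglec1*, *Siglece* and *Siglecg*, was therefore not measured. No 2 libraries were copies of each other, with a chi-square per degree of freedom of 4.31 to 763 between replicates.

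The members, gene lists and tests were chosen with earlier results of these data known, and the TATA box was added to the motifs after the sequences were seen. Named genes are all members, every relative past the filter, genes among the 4 most abundant tested of a list (some of which are not reported here) and the 5 genes most like *Siglece* and *Cd300e*. The alternatives were RLE in place of TMM, no filter or 1 CPM in 3 libraries as the filter, protein-coding genes alone, each pair of conditions alone, a fit with a replicate block, the Wald test of DESeq2, and leaving out single libraries.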

Additional observations from a re-analysis of the deposited data

How the results depend on the processing

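Over all alternatives, 339 of 353 counts of called members were within 1.5 times the reported count. Of 1575 values of single members 1534 were counted as the same. For tested values this means the same call, with direction compared only where a fit called the gene. Uncalled values could change sign: without PBS replicate 3 *Siglec1* went from 0.25 to -0.26 in frHMGB1 and from 0.41 to -0.10 in dsHMGB1 against PBS. For *Siglece* and *Cd300e* in comparisons with dsHMGB1 it means the same direction and a shift smaller than the SD among replicates. Where only the conditions compared were fitted, the number of members called higher in LPS than in PBS was 1 in place of 3, higher in dsHMGB1 than in LPS/IFNγ 5 in place of 2, lower in dsHMGB1 than in LPS 1 in place of 0, and lower in LPS/IFNγ than in LPS 5 in place of 2; these fits use fewer samples. Leaving out each library in turn gave 0 to 1 members higher in frHMGB1 than in PBS, 1 to 2 higher in LPS/IFNγ than in PBS, 2 to 5 higher in dsHMGB1 than in LPS/IFNγ, 0 to 1 lower in dsHMGB1 than in LPS and 0 to 4 lower in LPS/IFNγ than in LPS. The upper end of each range came without PBS replicate 3, and the lower end of the last one, 0, without LPS replicate 1 or LPS/IFNγ replicate 3. More of all genes were called as well without PBS replicate 3. In the order of these ranges, the shares of all genes called were then 8.41%, 33.3%, 27.9%, 23.3% and 24.3%. *Siglec1* in LPS against PBS had log2 fold changes of -0.39 (without PBS replicate 3) to 0.51 (without PBS replicate 2) around 0.13, and the cause was not tested. Chosen after seeing the data, the lists around the receptors were also tested without PBS replicate 3. No named gene of a list lost its call, but unnamed genes did. The ITAM list in LPS/IFNγ had 3 higher and 4 lower in place of 4 and 5, beside 33.3% and 34.4% of all genes. The sialyltransferases in dsHMGB1 had 4 higher and 5 lower in place of 5 and 4, beside 29.8% and 29%. In frHMGB1 5 genes of the ITAM list were called higher in place of 0, beside 8.41%. Named genes that turned and were then called had been uncalled with all libraries: in frHMGB1 *Cd300c2* to 0.23, *Tyrobp* to 0.29, *Pirb* to 0.17, *Clec12a* to 0.22 and *Siae* to -0.23, and in LPS/IFNγ *Pirb* to 0.22. Further genes changed sign without a call in either fit, such as *Siglecf* in frHMGB1 (0.09 to -0.13) and *Cd300ld3* in dsHMGB1 (0.23 to -0.32). The order of the 5 conditions was the same with TMM-scaled counts for all 9 members. *Siglecg*, with at most 24 counts in a library, is limited by depth.

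The replicate numbers did not pair the samples, since deviations from the group means had a median correlation of -0.0045 between samples of the same number (30 pairs, -0.386 to 0.375) and -0.0033 between others (60 pairs). A fit with the replicate block called the same numbers of members as without it, 1 higher and 4 lower in dsHMGB1 against PBS and 3 higher and 4 lower in LPS against PBS.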

Other observations

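Genes that expose or hide phosphatidylserine, a ligand of CD300 receptors, were mostly higher in stimulated macrophages. Of 9 scramblase and flippase genes tested, 6 were called higher in dsHMGB1, 7 with LPS and 8 with LPS/IFNγ, and 0 lower, with medians of 0.85, 0.87 and 1.68 on the log2 scale, against -0.10, -0.21 and -0.12 over all genes. The scramblase gene *Ano6* had means of 5819 ± 2291 in PBS, 8804 ± 953 in dsHMGB1, 10662 ± 926 with LPS and 17695 ± 128 with LPS/IFNγ (SD, n = 3), with edgeR adjusted p of 0.066, 0.011 and 8.9e-05 against PBS, and of 0.0077 in dsHMGB1 without PBS replicate 3. The flippase genes *Atp11a* and *Atp11b* rose by 0.97 and 1.04 in dsHMGB1 and by 2.44 and 3.67 in LPS/IFNγ, and their partner *Tmem30a* rose by 0.67 and 1.19. When PBS replicate 3 was left out, *Atp11a* and *Atp11b* rose by 0.61 and 0.62 in dsHMGB1. In that fit 1 of the 9 genes was called lower in LPS, beside 38.3% of all genes. Compared directly, 6 of the 9 genes were lower in dsHMGB1 than in LPS/IFNγ and 1 was higher, beside 16.7% and 16.5% of all genes. With that library left out the counts were 7 and 2, beside 25.4% and 27.9%. Flippases and scramblases are known to act in opposite directions on the lipid.

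Of 5 genes tested that remove or modify sialic acid, 2 were called lower in dsHMGB1, 4 with LPS and 4 with LPS/IFNγ, and 0 higher, with medians of -0.35, -0.81 and -0.66. Leaving out PBS replicate 3, 4 were called lower in dsHMGB1, *Siae* (-0.82) and *Casd1* (-0.39) being the added ones, beside 29% of all genes in that fit. *Neu1*, the lysosomal sialidase gene, had means of 7051 ± 1892 in PBS, 4005 ± 308 in dsHMGB1, 2907 ± 167 with LPS and 1957 ± 71.1 with LPS/IFNγ (SD, n = 3), and it was higher in dsHMGB1 than in LPS by 0.46 (edgeR adjusted p = 0.0096) and than in LPS/IFNγ by 1.03 (adjusted p = 3.3e-05). *Siae* fell in LPS (-0.81) and LPS/IFNγ (-0.66), and *Npl* fell in dsHMGB1 (-0.35), LPS (-0.34) and LPS/IFNγ (-0.53). *Casd1*, which acetylates sialic acid, had means of 1243 ± 578 in PBS and 1202 ± 169.7 in dsHMGB1, against 689.5 ± 49.7 in LPS and 559.9 ± 25.1 in LPS/IFNγ (SD, n = 3).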
